A study of Mus musculus with 8 samples.

Results

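The genes described here are 10 muscle actins and contractile genes, *Acta1*, *Acta2*, *Actg2*, *Actc1*, *Tagln*, *Cnn1*, *Myl9*, *Tpm1*, *Tpm2* and *Myh15*, taken by symbol from a table of 53465 genes. The list was drawn up with results of these data known, and *Acta1* and *Myh15* were selected on their large Smad4 differences in CPM under TGFβ1. Their values in that comparison are therefore given as a description, with no test. Of the 10 genes, 8 passed the filter on low counts and 2 did not: *Actc1* had 0 counts in all 8 libraries and *Cnn1* had 1 to 12 counts.

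RNA-seq covered 8 libraries of mouse pancreatic ductal adenocarcinoma (PDAC) cells, 1 library per line and condition. The lines, B73 and B87, each come from the primary tumor of 1 KC-shSmad4 mouse. Among the alleles that all libraries share are *Ptf1a*-Cre, which acts in the pancreatic lineage, a Cre-activated rtTA3 with an mKate2 reporter at *Rosa26*, and a doxycycline (Dox)-inducible, GFP-linked short hairpin RNA against *Smad4* placed at *Col1a1*. Smad4-off cells stayed on Dox, and Smad4-on cells had it withdrawn for 5 days. Each state was treated for 24 h with 100 pM TGFβ1 or with 2.5 µM SB505124, which blocks the kinase of the TGFβ type I receptor, giving 4 groups of n = 2, with 1 culture of each line. Each line is 1 tumor culture, and the line is a term of the model. The p-values of the group comparisons thus rest on how unevenly 2 lines changed between conditions, with the spread estimated jointly across genes. For the line term the libraries of 1 culture act as replicates, so its p-values do not measure the spread between tumors. TGFβ1 is compared with an inhibited receptor here, not with untreated cells.

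Actins are the building blocks of thin filaments. *Acta2* and *Actg2* encode the smooth muscle actins, *Acta1* the skeletal and *Actc1* the cardiac actin, while *Actb* and *Actg1* serve every cell. Myosin heavy chains such as *Myh15* pull on these filaments, *Myl9* is a regulatory light chain of smooth muscle myosin, tropomyosins lie along the filament, and calponin (*Cnn1*) and transgelin (*Tagln*) bind it. In the pancreas *Acta2* is best known as a marker of activated stellate cells and myofibroblasts, and TGFβ is a known inducer of this gene set in mesenchymal cells, where serum response factor (SRF) binds DNA sites called CArG boxes.

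The libraries held 18389235 to 23440550 counts, and 3 counts in them, the level taken as the floor, correspond to 0.125 to 0.162 CPM (counts scaled to the library total after TMM normalization). *Smad4* itself was at 33.7 to 35.5 CPM in the 4 Smad4-off libraries and at 97.3 to 117 CPM in the 4 Smad4-on libraries, which matches the labels. A gene was called when its adjusted p, over the 14301 genes tested, was under 0.05 and its change exceeded 2-fold. Of 8 epithelial markers all were detected in some library, but *Epcam*, a surface protein of ductal epithelium, stayed at 0.153 to 2.11 CPM. *Cldn4*, named after its values were seen, had 0 counts in every SB505124 library. Under TGFβ1 it had 69 and 906 counts in B73 and 4 and 64 in B87 (Smad4 off, on). The keratin *Krt8* was at 1140 to 2408 CPM in B73 and 236 to 391 CPM in B87. Of the 8 epithelial markers, 6 were called lower in B87 and 0 higher, beside 4.5% and 3.87% of all tested genes. Of 10 skeletal muscle markers, 8 had 3 counts or fewer in every library, with *Myf5*, *Myog* and *Ckm* at 0. The summed level of the skeletal markers was 1.12 to 1.98 CPM.

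The muscle actins are similar in sequence, so it was checked whether a read of 75 bases could be told apart between them. The coding sequences of *Acta1* and *Acta2* are each 1131 bases long, differ at 165 bases and are 85.4% identical. Among their 1057 aligned windows of 75 bases none was identical, and windows held 6 to 21 differences with a median of 10. The closest window, coding bases 1003 to 1077, is shown because it is where reads are hardest to place, with capitals for bases that differ from *Acta2* (GENCODE vM21 on GRCm38, each on the minus strand and within 1 coding exon).
Acta2, exon 9, chr19:34241724-34241798: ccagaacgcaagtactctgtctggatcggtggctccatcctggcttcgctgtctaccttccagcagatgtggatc
Acta1, exon 7, chr8:123892066-123892140: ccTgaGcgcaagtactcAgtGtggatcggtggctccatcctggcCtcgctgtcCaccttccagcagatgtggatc
Of all 75-base stretches in the transcripts of the 10 genes, 6 of 1521 in *Acta1* (0.394%) also occurred in a transcript of another gene, *Actb* or *Gm47692*, and none occurred in another gene of the list. The *Acta1* gene also lies inside *Gm20388* on the opposite strand, which had 0 counts in every library. *Tagln* overlaps the end of *Pcsk7* on the opposite strand, which had 678 to 1116 counts. *Tagln* also overlaps the antisense gene *Gm48529* (chr9:45930112-45933738), and *Actc1* lies inside *A530058N18Rik* on the opposite strand. The strand setting of the counting is not stated, so the low *Tagln* counts and the 0 counts of *Actc1* are uncertain.

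*Acta2* (ENSMUSG00000035783, chr19:34241090-34255336, minus strand) was by far the most abundant muscle actin and followed both Smad4 and TGFβ1. In line B73 it was at 10.2 CPM with Smad4 off and 59.3 CPM with Smad4 on under SB505124, and at 31.9 CPM and 194 CPM under TGFβ1. In line B87 the same 4 conditions gave 20.6, 130, 129 and 700 CPM. Both lines were lowest with Smad4 off under SB505124 and highest with Smad4 on under TGFβ1, and the lines overlapped between the 2 intermediate conditions only.

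The Smad4 difference in *Acta2* was 5.44- to 6.29-fold under both treatments, and the TGFβ1 difference was 3.14- to 6.25-fold in both Smad4 states. With the receptor kinase inhibited, Smad4-on cells had 5.83 times (B73) and 6.29 times (B87) the *Acta2* of Smad4-off cells (log2 fold change 2.62 ± 0.26 SE, edgeR adjusted p = 0.00714). Under TGFβ1 the Smad4 difference was 6.10-fold in B73 and 5.44-fold in B87. TGFβ1 raised *Acta2* in Smad4-off cells by 3.14-fold in B73 and 6.25-fold in B87 (log2 2.19 ± 0.26, edgeR adjusted p = 0.00353). In Smad4-on cells TGFβ1 raised it by 3.28-fold and 5.41-fold (log2 2.08 ± 0.24, edgeR adjusted p = 0.00109). These comparisons share libraries with each other. Without the line as a replicate block, none of these 3 calls was kept (adjusted p = 0.854, 0.265 and 0.153).

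B87 held more *Acta2* than B73 in every condition, by 2.02 to 4.03 times, and the line term was called (log2 1.53 ± 0.17, edgeR adjusted p = 0.00155). The fitted difference of the TGFβ1 response between the lines was 0.85 ± 0.11 on the log2 scale, with an edgeR adjusted p of 0.34 and an unadjusted p of 0.000369. No gene of the 14301 tested was called for this term (percent called 0), with 1198 genes (8.38%) at an unadjusted p under 0.05, so the larger response of B87 is a difference between single cultures that did not pass correction.

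**Figure D1:**
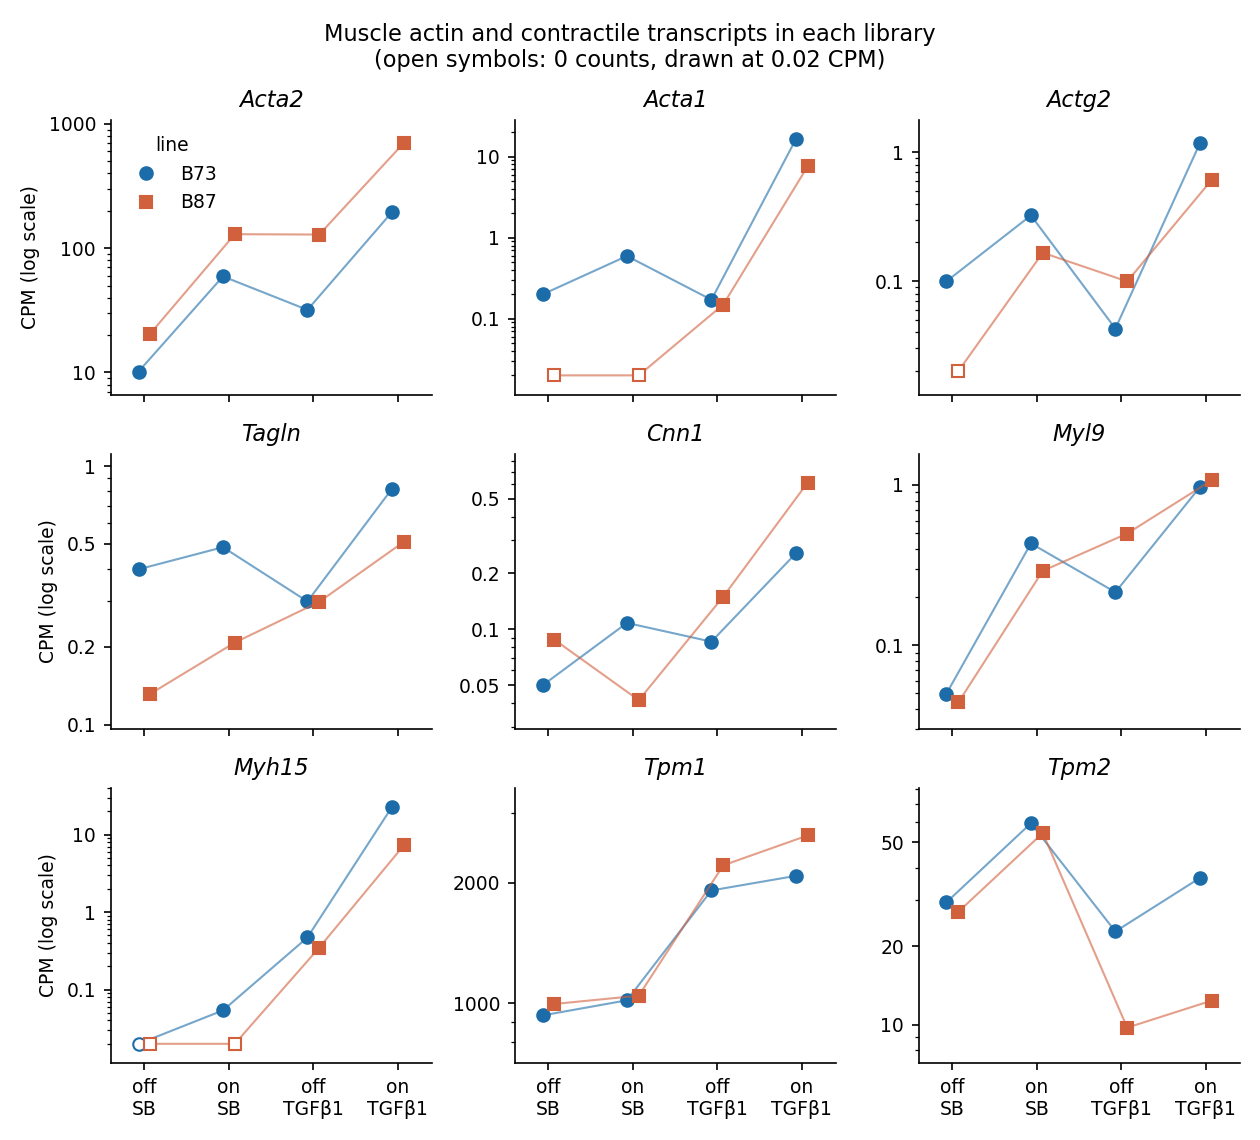
Level of 9 of the 10 genes in each library as CPM on log axes, with Smad4 state (off, on) and treatment (SB, SB505124; TGFβ1) on the horizontal axis and 1 symbol per line. *Acta2* climbs in both lines from 10.2 and 20.6 CPM to 194 and 700 CPM, while *Acta1* and *Myh15* stand far above the floor only with Smad4 on under TGFβ1; *Actc1*, with 0 counts, is not drawn.

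*Acta1* (ENSMUSG00000031972, chr8:123891769-123894751, minus strand) was near absent in 3 of the 4 conditions. In B73 it had 4 counts with Smad4 off and 11 with Smad4 on under SB505124, and 4 and 321 counts under TGFβ1. In B87 the corresponding counts were 0, 0, 3 and 149. The libraries with both Smad4 and TGFβ1 held 16.4 CPM in B73 and 7.59 CPM in B87, and the other 6 libraries lay between 0 and 0.594 CPM.

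Under TGFβ1, *Acta1* in Smad4-on cells was 95.6 times that in Smad4-off cells in B73, with a 95% counting interval of 37.0 to 353. In B87 the ratio, against 3 counts, was 50.8 with an interval of 17.1 to 249. These exact binomial intervals and the floors carry counting error only, since reads copied by PCR look like separate molecules. In Smad4-on cells TGFβ1-treated *Acta1* was 27.6 times the SB505124 level in B73 and at least 60.9-fold higher in B87, where the SB505124 library had 0 counts. In Smad4-off cells TGFβ1 gave 4 counts against 4 in B73 and 3 against 0 in B87 (log2 0.73 ± 1.30, edgeR adjusted p = 0.764), so no change was detectable at this depth. Under SB505124 the Smad4 difference rested on 11 against 4 counts in B73, with 0 in both B87 libraries (log2 1.42 ± 1.19, edgeR adjusted p = 0.688).

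The share of *Acta1* is given as a description, since it rests on the libraries used to choose it. *Acta1* made up 1.92% of the summed *Acta1* and *Acta2* counts in B73 with Smad4 off under SB505124 (95% exact interval 0.526 to 4.85%), 0.992% with Smad4 on under SB505124 (0.496 to 1.77%), 0.534% with Smad4 off under TGFβ1 (0.146 to 1.36%) and 7.76% with both (6.97 to 8.62%). In B87 the shares were 0% under SB505124 in both states, with upper limits of 0.783% and 0.118%, then 0.116% (0.0239 to 0.338%) and 1.07% (0.908 to 1.26%). The order of the lines was opposite for the 2 genes: B87 had 3.60 times the *Acta2* of B73 with both Smad4 and TGFβ1, and B73 had 2.16 times the *Acta1* of B87. The line term of *Acta1* was log2 -1.48 ± 0.55 and was not called. It is given without a p because it rests on the same libraries.

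Whether the response to TGFβ1 differed between Smad4 states is the interaction of the 2 factors, which includes the comparison used to choose genes. As a description, edgeR called it for 0 of the 8 tested genes of the list, beside 0.189% of all tested genes. DESeq2 with the line also called 0. The estimate was log2 4.83 ± 1.81 for *Acta1*, given without a p because the gene was chosen on that comparison. For *Acta2* it was log2 -0.12 ± 0.34 (edgeR adjusted p = 0.944).

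*Actg2* (ENSMUSG00000059430, chr6:83512905-83536265, minus strand), the enteric smooth muscle actin, had 2, 6, 1 and 23 counts in B73 and 0, 4, 2 and 12 counts in B87, in the order Smad4 off and on under SB505124, then off and on under TGFβ1. The highest values, 1.17 CPM in B73 and 0.611 CPM in B87, were again those with both Smad4 and TGFβ1. For TGFβ1 in Smad4-on cells the estimate was log2 1.84 ± 0.58, given without a p because *Actg2* passed the filter on low counts only through these 2 highest libraries. In Smad4-off cells 1 and 2 counts under TGFβ1 stood against 2 and 0 (log2 0.49 ± 1.21, edgeR adjusted p = 0.834).

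Per kilobase of transcript, the muscle actins remained a minor part of all actin RNA. They made up 0.539, 2.37, 1.05 and 4.41% of the 6 actins in B73, and 1.05, 5.69, 3.86 and 13.7% in B87, in the same order of conditions. *Actb*, the main cytoplasmic actin, ran from 965 CPM per kb to 2325 CPM per kb and was itself raised by TGFβ1 in Smad4-on cells (log2 1.00 ± 0.10, edgeR adjusted p = 0.000642). *Acta2* reached 109 CPM per kb in B73 and 393 CPM per kb in B87, above *Actg1* (233 CPM per kb) in the B87 library with Smad4 and TGFβ1 and below it in the 7 others.

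**Figure D2:**
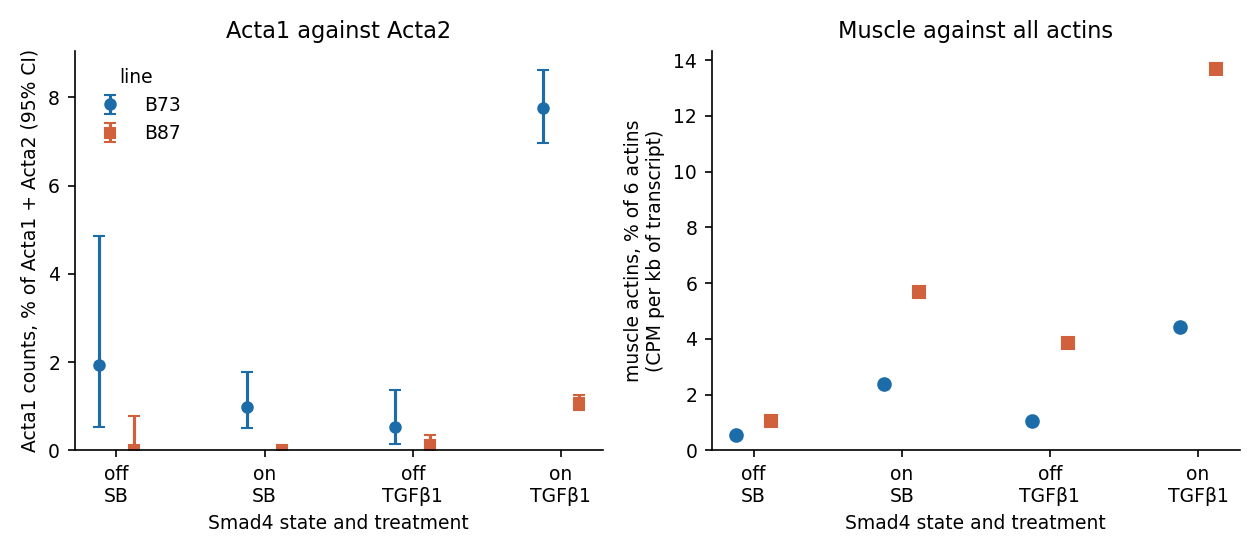
Left, *Acta1* counts as a percent of *Acta1* plus *Acta2* counts in each library, with exact 95% binomial intervals; right, the 4 muscle actins as a percent of all 6 actins by CPM per kb, each against Smad4 state and treatment. The share of *Acta1* is 7.76% (B73) and 1.07% (B87) with Smad4 on under TGFβ1.

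*Myh15* (ENSMUSG00000092009, chr16:49057486-49199104, plus strand), a myosin heavy chain related to the slow and cardiac forms, had a profile like that of *Acta1*. Its counts in B73 were 0 and 1 under SB505124 (Smad4 off, on) and 11 and 444 under TGFβ1. In B87 they were 0, 0, 7 and 142. The libraries with both reached 22.6 CPM in B73 and 7.23 CPM in B87, and the other 6 stayed at or below 0.471 CPM.

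Under TGFβ1 *Myh15* in Smad4-on cells was 48.1 times the Smad4-off level in B73 (95% counting interval 26.6 to 97.0) and 20.8 times in B87 (9.82 to 52.6). In Smad4-on cells TGFβ1 against SB505124 gave at least a 58.0-fold higher level in B87, and 444 against 1 count in B73. In Smad4-off cells *Myh15* went with TGFβ1 from 0 counts in both lines to 11 in B73 and 7 in B87, at least 3.15-fold and at least 2.65-fold higher. This difference was called (log2 6.11 ± 1.20, edgeR adjusted p = 0.0262), but *Myh15* passed the filter only through the libraries with both Smad4 and TGFβ1, and the call rests on these few counts. It was lost without the line block (adjusted p = 0.132) and in 3 of 8 fits with a library left out. Whether *Acta1* and *Myh15* differ in their Smad4-off response was not tested. *Myh15* was lower in B87 than in B73 (line term log2 -1.40 ± 0.35). No p is given for this, since the gene was chosen on, and passed the filter through, the libraries with both Smad4 and TGFβ1. The line call of the main fit was lost with DESeq2 and in 4 of 8 fits with a library left out, where the change was -0.61 to -1.66.

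*Myl9* (ENSMUSG00000067818, chr2:156775420-156781658, plus strand) was scarce, with 1, 8, 5 and 19 counts in B73 and 1, 7, 10 and 21 in B87, in the order of conditions used above. The 2 lines were close with both Smad4 and TGFβ1, at 0.969 and 1.07 CPM, and both were at 1 count with Smad4 off under SB505124. For TGFβ1 in Smad4-on cells the estimate was log2 1.51 ± 0.47, given without a p because *Myl9* too passed the filter through the libraries with both. The changes with TGFβ1 in Smad4-off cells (log2 2.75 ± 0.80, edgeR adjusted p = 0.0671) and with Smad4 under SB505124 (log2 2.78 ± 0.80, edgeR adjusted p = 0.193) did not pass.

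*Tagln* (ENSMUSG00000032085, chr9:45929619-45936058, minus strand) had 8, 9, 7 and 16 counts in B73 and 3, 5, 6 and 10 in B87. *Cnn1* (ENSMUSG00000001349, chr9:22099216-22109630, plus strand) had 1, 2, 2 and 5 counts in B73 and 2, 1, 3 and 12 in B87. In both genes the 2 libraries with Smad4 on under TGFβ1 were the highest of their line, at 0.816 and 0.509 CPM for *Tagln* and at 0.255 and 0.611 CPM for *Cnn1*. *Tagln* was not called in any comparison. For TGFβ1 in Smad4-on cells the estimate was log2 0.96 ± 0.48, given without a p because *Tagln* passed the filter through the libraries with both Smad4 and TGFβ1. For Smad4 under SB505124 the estimate was log2 0.38 ± 0.55 (edgeR adjusted p = 0.84). The cardiac actin *Actc1* (ENSMUSG00000068614, chr2:114047282-114053548, minus strand) had 0 counts throughout. That allows up to 0.125 to 0.162 CPM per library, if no reads were lost to the overlapping gene.

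*Tpm1* (ENSMUSG00000032366, chr9:67022590-67049406, minus strand), a tropomyosin of muscle and nonmuscle cells alike, was the most abundant of the 10 genes and followed TGFβ1. It was at 932 and 1017 CPM in B73 and at 996 and 1044 CPM in B87 under SB505124 (Smad4 off, on), and at 1915 and 2083 CPM in B73 and 2213 and 2629 CPM in B87 under TGFβ1. The 4 TGFβ1 libraries thus lay above the 4 SB505124 libraries with no overlap. TGFβ1 raised it in Smad4-on cells (log2 1.18 ± 0.10, edgeR adjusted p = 0.000335) and in Smad4-off cells (log2 1.09 ± 0.10, edgeR adjusted p = 0.00153), and both calls were also made without the line block (adjusted p = 0.00664 and 0.0286). The Smad4 difference under SB505124 was log2 0.10 ± 0.10 (edgeR adjusted p = 0.754). Under TGFβ1 the levels in Smad4-on cells were 1.09 times (B73) and 1.19 times (B87) those in Smad4-off cells.

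*Tpm2* (ENSMUSG00000028464, chr4:43514711-43523765, minus strand), a tropomyosin of skeletal and smooth muscle, moved the other way with TGFβ1. Under SB505124 it was at 29.5 and 59.2 CPM in B73 and at 27.1 and 54.3 CPM in B87 (Smad4 off, on). Under TGFβ1 it was at 22.8 and 36.5 CPM in B73 and at 9.76 and 12.4 CPM in B87. The lines were alike under SB505124, and B73 held 2.33 and 2.95 times the level of B87 under TGFβ1.

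In Smad4-on cells *Tpm2* fell with TGFβ1 (log2 -1.37 ± 0.36, edgeR adjusted p = 0.0262), by 1.62 times in B73 and 4.38 times in B87. The call was lost without the line block (adjusted p = 0.205) and without the B87 Smad4-on library under SB505124 (0.146) or under TGFβ1 (0.128). In Smad4-off cells the levels with TGFβ1 were 1.29 and 2.78 times lower (log2 -0.91 ± 0.36, edgeR adjusted p = 0.155). Smad4-on cells under SB505124 had 2.01 times the *Tpm2* of Smad4-off cells in B73 and 2.0 times in B87, which was not called (log2 1.01 ± 0.35, edgeR adjusted p = 0.293) but was with no filter on low counts (adjusted p = 0.00507). The difference of the TGFβ1 response between the lines was log2 -1.27 ± 0.16, with an edgeR adjusted p of 0.34, an unadjusted p of 0.000282 and a DESeq2 adjusted p of 0.00305.

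Per kilobase, *Tpm1* stood at 14.2 times *Tpm2* in B73 and 16.5 times in B87 with Smad4 off under SB505124, and at 7.71 and 8.63 times with Smad4 on. Under TGFβ1 the ratio was 37.7 (Smad4 off) and 25.6 (Smad4 on) in B73, and 102 and 95.2 in B87. The ratio was thus higher under TGFβ1 and lower with Smad4 in both lines. Of the 4 tropomyosin genes, *Tpm4* was the most abundant in every library by this scale, at 293 to 709 CPM per kb, against 144 to 405 CPM per kb for *Tpm1*. That order depends on the length used, which for *Tpm1* (6485 bases) joins the exons of all its transcripts. In CPM, *Tpm1* was above *Tpm4* in every library, at 932 to 2629 CPM against 645 to 1563 CPM.

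**Figure D3:**
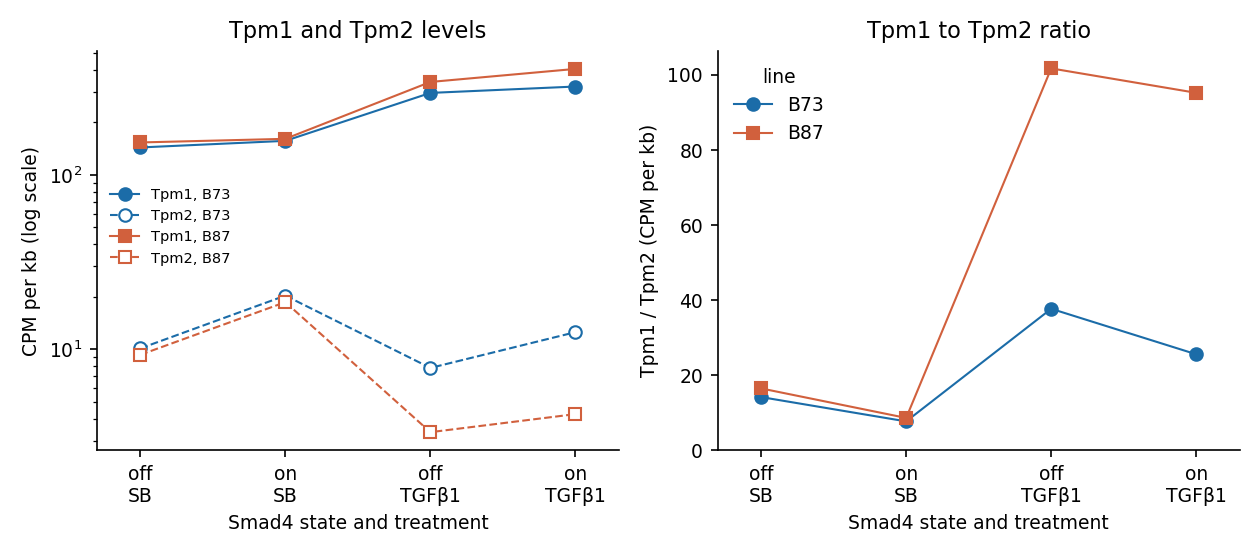
Left, *Tpm1* and *Tpm2* in CPM per kb of transcript on a log axis; right, the ratio of *Tpm1* to *Tpm2*, each by Smad4 state and treatment with 1 symbol per line. The ratio is 7.71 to 16.5 in the SB505124 libraries and 25.6 to 102 in the TGFβ1 libraries.

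Counted by comparison, TGFβ1 in Smad4-on cells gave *Acta2* and *Tpm1* higher and *Tpm2* lower, where 13.9% of all tested genes were called, 5.62% of the tested genes being higher and 8.31% lower. The other tested genes are counted in no comparison here. *Acta1* and *Myh15* were chosen with the libraries that had both Smad4 and TGFβ1, and *Actg2*, *Tagln* and *Myl9* passed the filter through them. TGFβ1 in Smad4-off cells gave *Acta2* and *Tpm1*, both higher, against 5.93% of all genes (3.11% higher, 2.82% lower). *Myh15* was called there too but is left out of the count. Smad4 under SB505124 gave *Acta2* alone, against 1.09% of all genes (0.636% higher). For Smad4 under TGFβ1, the comparison used to choose genes, no count over the list is drawn, and 3.12% of all genes were called. Between the lines *Acta2* was called, higher in B87, against 8.37% of all genes (3.87% higher, 4.5% lower). *Myh15*, called lower in B87, is again not counted. The medians over the 8 genes were log2 1.67, 0.91, 1.83 and 2.02 in the first 4 comparisons, beside -0.02, -0.02, 0.00 and -0.01 over all tested genes. These medians are descriptions and no support, since *Acta1*, *Actg2*, *Tagln*, *Myl9* and *Myh15* would not have passed the filter without the 2 libraries in which they were highest.

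**Figure D4:**
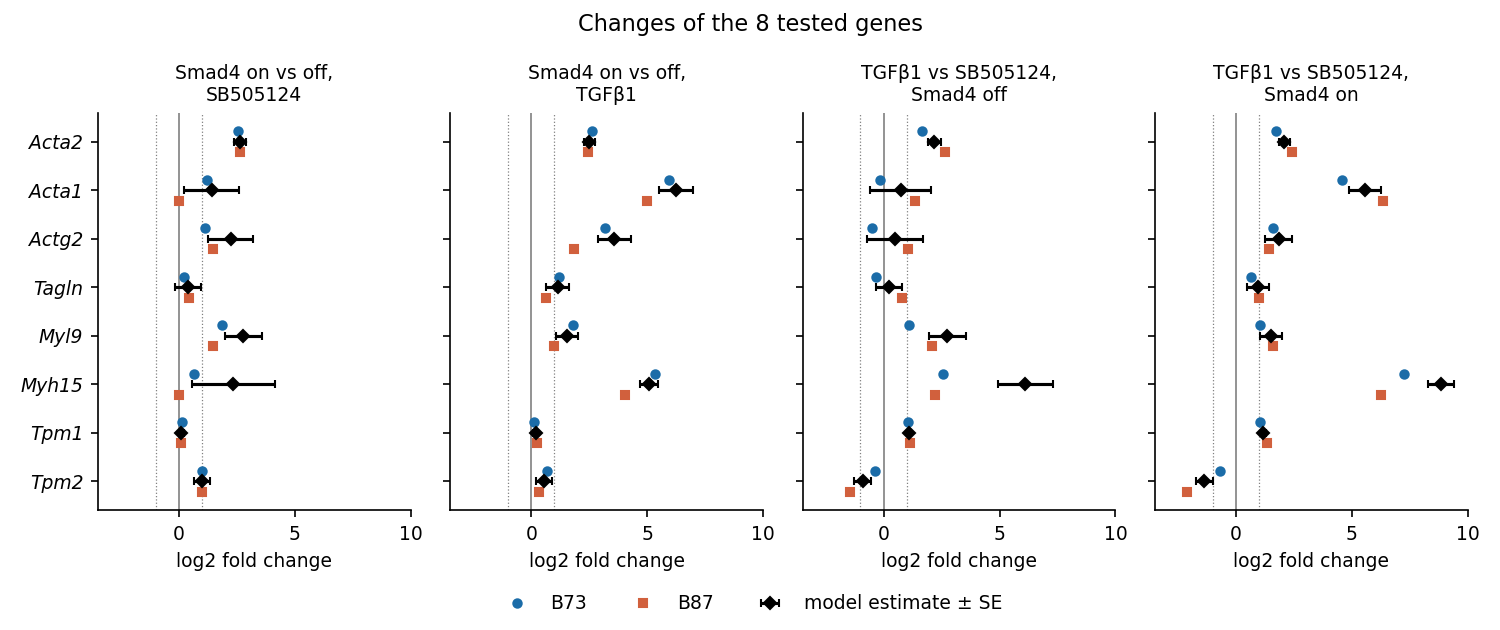
Log2 fold changes of the 8 tested genes in 4 comparisons, with black diamonds for the edgeR estimate ± SE and symbols for each line (log2 CPM, prior count 2, which pulls genes with few counts towards 0). Dotted lines mark 2-fold; *Acta2* is over 2-fold in all 4 panels and *Tpm1* in the 2 TGFβ1 panels, and the comparison of Smad4 under TGFβ1 was used in choosing *Acta1* and *Myh15*.

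Other contractile genes were taken from lists drawn up with earlier results of these data known. For each list, the counts stand beside the shares over all tested genes. With TGFβ1 these were 5.62% higher and 8.31% lower in Smad4-on cells, and 3.11% higher and 2.82% lower in Smad4-off cells. Of 20 smooth muscle contractile genes, 12 were tested, and TGFβ1 in Smad4-on cells raised 5 and lowered 2 (median log2 0.49). The LIM protein *Pdlim7* rose from 50.3 and 46.7 CPM to 297 and 262 CPM in B73 and B87 (log2 2.52 ± 0.11, edgeR adjusted p = 4.83e-05). Myosin light chain kinase, *Mylk*, which phosphorylates light chains such as Myl9, fell from 13.4 and 25.3 CPM to 1.02 and 2.50 CPM (log2 -3.47 ± 0.56, edgeR adjusted p = 0.00411). *Ppp1r14a*, an inhibitor of myosin phosphatase, fell from 11 and 13 counts to 0 and 2 (log2 -3.33 ± 0.79). It counts among the 2 lowered but is given without a p, since it passed the filter on low counts only through SB505124 libraries. In Smad4-off cells 3 of the 12 were higher and 1 lower, including *Pdlim7* (log2 2.28 ± 0.11, edgeR adjusted p = 0.000231) and *Mylk* (log2 -1.89 ± 0.44, edgeR adjusted p = 0.0334).

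All 20 nonmuscle actomyosin genes were tested, and TGFβ1 in Smad4-on cells raised 5 and lowered 2 (median log2 0.83), while in Smad4-off cells 2 were higher and 1 lower. The actin cross-linker *Actn1* rose from 509 and 445 CPM to 1819 and 1914 CPM (log2 1.97 ± 0.12, edgeR adjusted p = 0.000113). The focal adhesion gene *Zyx* rose from 83.3 and 203 CPM to 372 and 561 CPM (log2 1.80 ± 0.15, edgeR adjusted p = 0.00034). The nonmuscle myosin heavy chain *Myh14* fell from 94 and 72 counts to 3 and 1 (log2 -5.26 ± 0.52, edgeR adjusted p = 0.000612), in the opposite direction to *Myh15* in the same libraries.

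Of 33 striated sarcomere genes 12 were tested, 17 had 3 counts or fewer in every library, and 4 were higher and 1 lower with TGFβ1 in Smad4-on cells (median log2 0.80). Cardiac troponin T, *Tnnt2*, was at 17.9 and 45.3 CPM with Smad4 off under SB505124 and at 414 and 587 CPM with Smad4 off under TGFβ1 (log2 4.04 ± 0.28, edgeR adjusted p = 0.000662). In Smad4-on cells it went from 76.5 and 87.03 CPM to 354 and 424 CPM (log2 2.25 ± 0.25, edgeR adjusted p = 0.000973). *Tnnt2* was thus highest with Smad4 off under TGFβ1, unlike the actins. The atrial light chain *Myl7* had 0 counts in both Smad4-off SB505124 libraries, 19 and 7 with Smad4 on, 6 and 1 with TGFβ1 and Smad4 off, and 88 and 29 with both. *Tnnt2* was called for Smad4 under SB505124 (edgeR adjusted p = 0.0492), where 1.09% of all tested genes were called. *Myl7* was called there too, given without a p because it passed the filter through the libraries with both Smad4 and TGFβ1. *Tnni3*, cardiac troponin I, fell with TGFβ1 in Smad4-on cells from 11 and 5 counts to 0 in both lines (edgeR adjusted p = 0.0184), and *Tnni1*, slow skeletal troponin I, rose in Smad4-off cells from 3 and 9 counts to 20 and 44 (log2 2.46 ± 0.38, edgeR adjusted p = 0.00842).

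Among 18 genes of SRF and its regulators, 17 were tested and 3 were higher with TGFβ1 in Smad4-on cells (median log2 0.17) and 2 in Smad4-off cells, with none lower. Over all tested genes 13.9% were called in Smad4-on cells and 5.93% in Smad4-off cells, in either direction. The SRF cofactor gene *Mkl1* rose in both states (log2 1.18 ± 0.08, edgeR adjusted p = 0.000176 with Smad4 on, and 1.03 ± 0.08, edgeR adjusted p = 0.00105 with Smad4 off), as did the small GTPase gene *Rhob* (log2 2.23 ± 0.09 and 1.75 ± 0.09, edgeR adjusted p = 3.86e-05 and 0.00032). The LIM protein gene *Fhl2* rose in Smad4-on cells (log2 1.65 ± 0.19, edgeR adjusted p = 0.00102). *Srf* itself changed by log2 0.98 ± 0.11 (edgeR adjusted p = 0.000818), just under the 2-fold rule, and *Mkl2* by -0.02 ± 0.09 (edgeR adjusted p = 0.88). *Myocd*, which encodes the cofactor myocardin of cardiac and smooth muscle, had 0 counts in all libraries.

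The promoters of the genes were searched for CArG boxes because *Acta2* and *Acta1* are textbook SRF targets. RefSeq (GRCm38.p6) gave the 250 bases before the start for 8 of the 10 genes, and *Actg2* and *Tagln* had no entry. A CArG box is CC, 6 bases of A or T, then GG, which reads the same on both strands in these terms, and a looser form with a single G or C among the 6 inner bases was counted apart. The *Acta1* promoter held a CArG box at -73 to -64 and looser forms at -205 and -154. *Myl9* held a CArG box at -161 to -152 and a looser form at -99. *Acta2* held looser forms at -84 and -34, and both lie in its first exon as drawn in GENCODE vM21 (chr19:34255290-34255590), which starts further upstream. *Myh15* held neither form. These sequences are printed with both forms in capitals, the *Acta2* sites with 10 bases on each side, and *Myl9* up to the start of the gene in the deposited table.
Acta1, chr8:123894776-123895025, minus strand: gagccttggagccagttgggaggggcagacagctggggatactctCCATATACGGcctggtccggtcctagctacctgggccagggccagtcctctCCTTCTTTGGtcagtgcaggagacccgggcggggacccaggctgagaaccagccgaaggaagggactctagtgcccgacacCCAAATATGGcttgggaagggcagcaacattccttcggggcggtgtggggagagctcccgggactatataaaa
Acta2, site at -84, chr19:34255438-34255467, minus strand: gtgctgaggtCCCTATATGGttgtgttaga
Acta2, site at -34, chr19:34255388-34255417, minus strand: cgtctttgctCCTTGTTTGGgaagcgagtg
Myl9, chr2:156775214-156775419, plus strand: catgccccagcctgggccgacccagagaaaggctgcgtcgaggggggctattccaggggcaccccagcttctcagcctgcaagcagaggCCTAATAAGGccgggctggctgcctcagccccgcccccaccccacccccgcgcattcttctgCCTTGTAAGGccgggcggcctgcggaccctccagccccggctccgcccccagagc
Myh15, chr16:49057150-49057399, plus strand: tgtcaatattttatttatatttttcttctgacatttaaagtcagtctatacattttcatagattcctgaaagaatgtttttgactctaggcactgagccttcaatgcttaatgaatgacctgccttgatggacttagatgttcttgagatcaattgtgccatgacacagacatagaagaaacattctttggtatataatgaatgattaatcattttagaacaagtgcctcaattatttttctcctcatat

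A CArG box occurred in 3 of the 8 promoters (*Acta1*, *Actc1* and *Myl9*) and in 1.47% of 32851 mouse promoters of the same length. The looser form occurred in 4 of 8 (the same genes and *Acta2*) and in 7.24% of all. The MCAT motif CATTCC, bound by TEAD factors and searched on both strands, occurred in 3 of 8 (*Acta1*, *Acta2* and *Tpm1*) and in 12.6% of all. The SMAD-binding letters CAGAC, searched on both strands, occurred in 4 of 8 (*Acta1*, *Acta2*, *Actc1* and *Myh15*) and in 42.2% of all. *Cnn1* and *Tpm2* held none of the 4. *Actc1*, with a CArG box and 3 looser forms, had 0 counts in all libraries, and *Myh15*, with no CArG box, reached 444 counts. A match is a description of the letters and not a measured site.

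**Figure D5:**
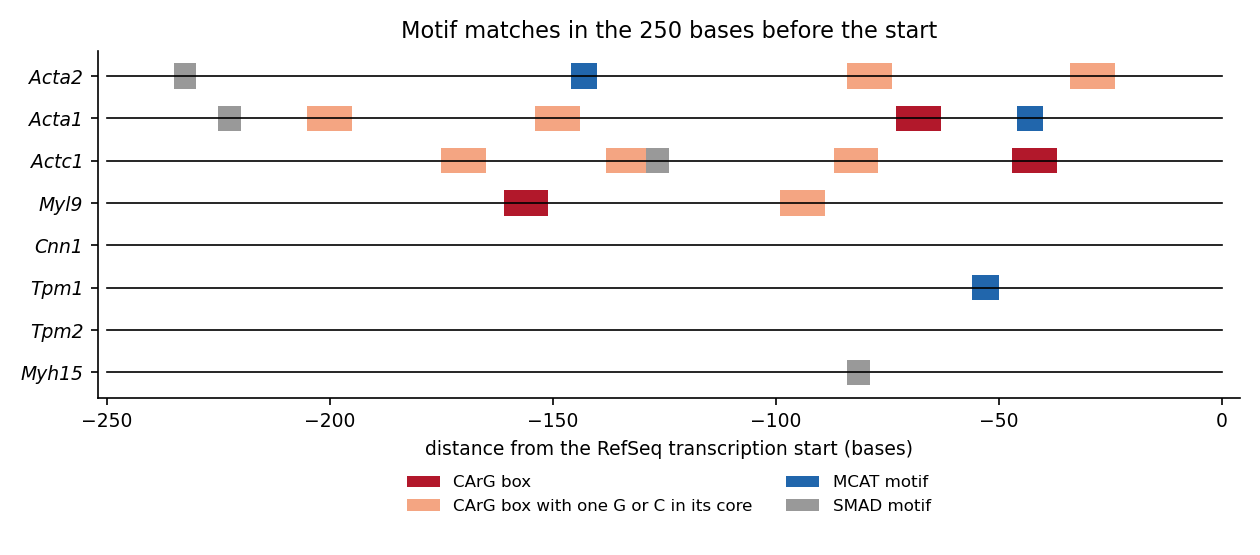
Positions of the motif matches in the 250 bases before the RefSeq start of 8 of the genes, by distance from the start in bases; colors mark the CArG box, its looser form, the MCAT motif and the SMAD motif. *Acta1*, *Actc1* and *Myl9* carry a CArG box, *Acta2* carries 2 of the looser form, and *Cnn1* and *Tpm2* carry no match.

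Because *Acta2* also marks fibroblasts and mural cells, their markers were set beside it. In bulk RNA a change in the number of cells of a type and a change in RNA per cell cannot be told apart. Of 10 fibroblast and stellate markers, *Lum* was at 0 in all libraries and *Dcn* and *Thy1* had 3 counts or fewer. Their summed level was 8.48 to 45.7 CPM in B73 and 75.1 to 692 CPM in B87. *Col1a1*, named after its values were seen, carried most of it in B87 with TGFβ1. It was at 25.9, 119, 160 and 627 CPM in B87 and at 0.349, 0.594, 2.18 and 5.10 CPM in B73. Like *Acta2*, it was lowest with Smad4 off under SB505124 and highest with both Smad4 and TGFβ1. Its intermediate conditions were ordered the other way from those of *Acta2*, which was nearly level between them in B87. The hairpin cassette sits at *Col1a1*. Without *Col1a1* the sum was 49.2, 58.5, 91.4 and 65.2 CPM in B87 and 21.2, 7.88, 43.5 and 7.96 CPM in B73, which did not follow *Acta2*. *Pdgfrb* had 25, 5, 34 and 0 counts in B73 and 291, 653, 380 and 310 counts in B87. *Pdgfrb* was thus higher in B87, as *Acta2* was (line term log2 4.64 ± 0.60, edgeR adjusted p = 0.00255). Within each line, however, its highest value was not with both Smad4 and TGFβ1. Of the 6 tested fibroblast and stellate markers, 4 were called higher in B87, beside 3.87% of all tested genes. The gene *Col1a2* was called lower (line term log2 -4.03 ± 0.47), beside 4.5% of all tested genes. It is given without a p because it passed the filter on low counts only through B73 libraries. Of 8 mural markers *Abcc9* was at 0 and 2 more had 3 counts or fewer. The summed mural level was 2.16 to 12.5 CPM, of which *Mcam* gave 11.7 CPM in the highest library. *Mcam* was lowest and highest in the same conditions as *Acta2*, at 0.748, 0.864, 2.70 and 11.7 CPM in B73 and 0.746, 2.20, 4.58 and 8.15 CPM in B87. It was called for TGFβ1 with Smad4 on (log2 2.74 ± 0.44, edgeR adjusted p = 0.00384) and off (log2 2.25 ± 0.48, edgeR adjusted p = 0.0266). Of 8 endothelial and immune markers, *Cd3e* was at 0 and 4 in all had 3 counts or fewer, and the sum was 3.94 to 28.1 CPM. The endothelial cadherin gene *Cdh5* had 2, 3, 23 and 54 counts in B73 and 0, 4, 16 and 40 in B87. With TGFβ1 it was higher with Smad4 on (log2 3.79 ± 0.50) and off (log2 4.08 ± 0.69). No p is given for *Cdh5* because it passed the filter on low counts only through TGFβ1 libraries. *Pdgfrb*, *Col1a2*, *Mcam* and *Cdh5* are named after their values were seen. The part of these cell types in the *Acta2* level was not tested beyond these values.

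The genes whose pattern over the 8 libraries was most like that of the list were found by Pearson correlation of log2 CPM among 11100 genes, as a description without a test, since the libraries share lines and conditions. For the mean of the 8 tested genes they were *Plec* (r = 0.990), *3110002H16Rik* (0.988), *Trir* (0.987), *Capn2* (0.985) and *Capns1* (0.984). *Plec*, which encodes the cytolinker plectin, was lowest with Smad4 off under SB505124, at 705 and 662 CPM, and highest with both Smad4 and TGFβ1, at 1700 and 1644 CPM (B73, B87). For *Acta2* alone they were *Slc35b4* (0.991), *Palld* (0.983), *Usp4* (0.974), *Sdc3* (0.969) and *Tagln2* (0.969). *Palld*, which encodes the actin-binding protein palladin, was at 27.6, 52.3, 48.7 and 152 CPM in B73 and at 46.0, 107, 102 and 288 CPM in B87. Within the list, *Acta1* was closer to *Myh15* (r = 0.926) and *Actg2* (0.913) than to *Acta2* (0.642), *Acta2* was closest to *Myl9* (0.923), and *Tpm1* and *Tpm2* had r = -0.710.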

How the data were processed

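The authors made stranded poly(A) libraries, sequenced them as 75 bp single-end reads, and deposited 1 table of raw counts per gene. Per the submitters' processing notes the tools were FastQC 0.11.5, Trimmomatic 0.36, STAR 2.5.3a and featureCounts 1.6.3 on GRCm38 (mm10). How strand and multiply mapped reads were handled is not given in the sources used here. Cells had been passaged to remove non-tumor cells. An allele carried by all libraries is not reported here. Coordinates are those of the deposited table.

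The genes and lists were chosen with earlier results of these data known. Of each list the text names the 3 genes with the largest called change for TGFβ1 in Smad4-on cells and the 2 largest in Smad4-off cells, plus *Srf*, *Mkl1*, *Mkl2* and *Myocd*. The genes of most similar pattern are the 5 with the highest correlation.

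All 14301 genes passing filterByExpr were fitted in edgeR 4.0.16 (R 4.3.3; TMM, quasi-likelihood F-test) with the 4 groups and the line as terms. P-values were Benjamini-Hochberg adjusted over all tested genes, and a gene was called at an adjusted p under 0.05 and a change over 2-fold. The SE is the estimate over √F. The study tested with DESeq2 and names no covariate. The line enters the model because each line went through all 4 conditions. Libraries of the same line deviated together (r = 0.642 to 0.774, median 0.758, over 6 pairs of groups). CPM per kb uses the transcript length in the table. For the genes of the list it is the joined length of all GENCODE exons of the gene, except for *Acta2* (1781 against 2196 bases). Alternatives were another normalization, DESeq2 1.42.0 with the line, no line, other filters and fold rules, and each library left out, as well as DESeq2 without the line, which was chosen after seeing the data.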

Additional observations from a re-analysis of the deposited data

How the results depend on the processing

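Of 717 values of single genes recomputed under the alternatives, 640 kept their direction and their side of the threshold, 54 lost a call, 6 gained one and 17 changed sign. None of the 17 called values changed sign, and 13 of the 17 were also called by DESeq2 with the line. The 17 include values from the comparison used to choose genes, and genes that passed the filter through their highest libraries. This tally is thus a description and no support. The line as a replicate block mattered most: with no replicate block 3 of 15 called values with a group contrast were kept, and the number of the 8 genes past the limits was 0 for Smad4 under SB505124 (1 with the block), 2 for TGFβ1 in Smad4-on cells (7) and 1 for TGFβ1 in Smad4-off cells (3). Over all tested genes the calls went from 156 to 2, from 1993 to 1035 and from 848 to 168, so the loss is not particular to these genes. For Smad4 under TGFβ1, where genes were chosen, no count of the list is given, and the calls over all genes went from 446 to 36. The 7 include *Acta1*, *Actg2*, *Myl9* and *Myh15*, and the 3 include *Myh15*. The counts of the list in this section are thus a description and no support. DESeq2 with no replicate block gave 0 for Smad4 under SB505124 and 3 for TGFβ1 in Smad4-on cells (97 and 1363 over all genes). A minimum of 10 counts in every library left 3 of the genes to test. It called 3 for TGFβ1 in Smad4-on cells and 1 between the lines (1293 and 488 over all genes). A test against the 2-fold threshold called 3 for TGFβ1 in Smad4-on cells, 1 in Smad4-off cells and 0 between the lines (882, 204 and 570 over all genes). With no filter on low counts 2 were called for Smad4 under SB505124 and 2 for the difference of the TGFβ1 response between the lines (403 and 80 over all genes). DESeq2 with the line called 1 for that difference (*Tpm2*) and 1 between the lines (25 and 1047 over all genes). Leaving out 1 library gave 4 to 6 genes for TGFβ1 in Smad4-on cells (4 without either Smad4-on B87 library). It gave 2 to 3 for TGFβ1 in Smad4-off cells and 1 to 2 between the lines (1 without any one of the Smad4-on libraries). The cause was not tested.

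The changes of sign all came from leaving out 1 library, in values that were not called, over which the log2 values ran as follows. For the Smad4 difference of *Tpm2* under TGFβ1 they ran from -0.11 to 1.00 and of *Acta1* under SB505124 from -3.42 to 4.69. For TGFβ1 in Smad4-off cells they ran from -0.56 to 3.26 (*Actg2*) and from -0.21 to 0.82 (*Tagln*). For the interaction of Smad4 and TGFβ1 they ran from -0.43 to 0.25 (*Acta2*), from -1.42 to 2.40 (*Actg2*) and from -0.023 to 0.20 (*Tpm1*). For the line difference of *Myl9* they ran from -0.12 to 0.48, and for the line difference in the TGFβ1 response of *Myh15* from -1.40 to 2.06. Genes with under 30 counts in every library (*Actg2*, *Tagln*, *Cnn1* and *Myl9*) are limited by depth.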
